A study of Mus musculus with 4 samples.

Results

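Transcripts of 10 genes of the Notch pathway were followed in brains of mouse embryos labelled as macroH2A knockout or as wild type. MacroH2A is a histone H2A variant with a large additional domain. They are the receptor genes Notch1, Notch2 and Notch3, the ligand genes Dll1, Dll3, Jag1 and Jag2, and the modulator genes Lfng, Rbpj and Nrarp. Members were found by gene symbol in both deposited tables, and all 10 were present, of 19150 genes that the tables share, and had enough reads to be tested. Whole-brain RNA of C57BL/6 embryos at stage E13.5 was sequenced in 2 knockout (KO) libraries, KO2 and KO4, and 2 wild-type (WT) libraries, WT6 and WT8. The labels name no allele, no driver line and no treatment, and do not say which macroH2A gene was deleted or whether the 2 libraries of a genotype came from separate litters. The p-values set the difference between genotypes against the spread between these libraries, some of which may be technical. Whether that spread covers variation between litters is therefore not known.

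Notch receptors are cut on contact with a ligand on a neighbouring cell, and the released intracellular part joins the DNA-binding protein RBPJ to switch on genes such as Hes1 and Hes5. In the embryonic brain, newly forming neurons carry Delta ligands and thereby keep neighbouring radial glia, the dividing stem cells of the ventricular wall, from differentiating. Lunatic fringe, the product of Lfng, adds sugars to the receptor that change its response to Delta and Jagged ligands. Nrarp is itself switched on by Notch and acts as a feedback inhibitor.

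Total counts lay between 16470090 and 18136745 per library. H2afy, the macroH2A1 gene, had 322 CPM (read counts scaled to library size) in WT6, 350 in WT8, 74.6 in KO2 and 69.2 in KO4, and it fell by 2.22 on the log2 scale (SE 0.10, edgeR quasi-likelihood adjusted p = 0.00167). Without WT6 the fold was -2.29 and the adjusted p of edgeR 0.314. H2afy2, the macroH2A2 gene, had 192 CPM in WT6, 182 in WT8, 190 in KO2 and 206 in KO4, a log2 fold change of 0.08 (95% interval -0.13 to 0.30). The labelled tissue matched its markers: the neuronal tubulin gene Tubb3 led the 5 neuronal markers, which summed to between 5506 and 5879 CPM per library, and Fabp7 led the 6 radial glia markers, which summed to between 1990 and 2277 CPM. In bulk tissue, fewer cells of a type and less RNA per cell cannot be told apart.

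None of the 10 Notch genes passed the edgeR test between KO and WT brains. The background was 0.00637% of 15708 genes tested, which is H2afy alone, and DESeq2 and limma-voom called 0 of the 10 as well. At an unadjusted p under 0.05 edgeR gave 1 of the 10, Jag1, beside 4.7% of all genes. The fitted log2 fold change was above 0 for 6 of the 10 and below 0 for 4, beside 7675 and 8033 of all genes tested. The median was 0.06, beside -0.01 over all genes tested. A 95% interval reached a median of 0.27 to either side, beside 0.26 for the 10055 genes with a mean of at least 10 CPM. The genotypes did not overlap for 5 of the 10, beside 39.4% of all genes. KO was the higher genotype for Dll1 and Jag1, beside 20.1% of all genes, and the lower one for Notch3, Jag2 and Nrarp, beside 19.4%. Of the 10055 genes with a mean of at least 10 CPM, KO was higher without overlap for 2127 and lower for 2250.

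**Figure D1:**
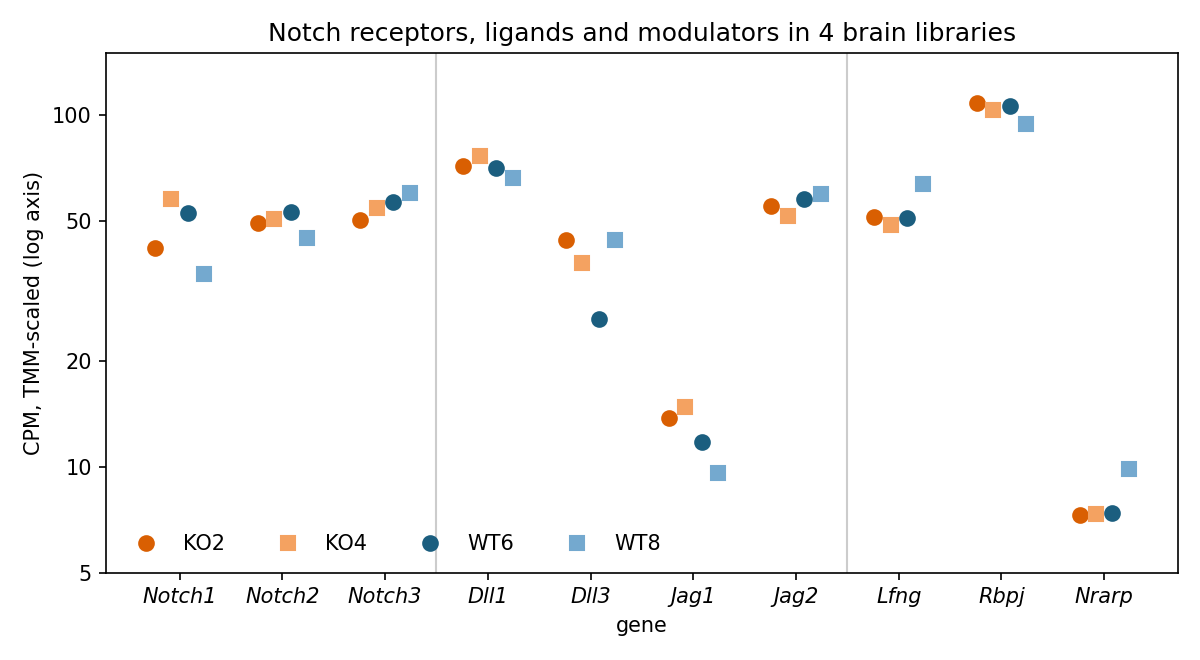
CPM of each gene in KO2, KO4 (orange), WT6 and WT8 (blue) on a log axis, 1 point per library, with receptors, ligands and modulators separated by lines. Rbpj was highest at 94.1 to 108 CPM, Nrarp lowest at 7.31 to 9.83 CPM, and single libraries stand apart for Notch1 and Dll3.

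None of the 3 receptor genes passed, and Notch1 varied most between single libraries. Notch1 (ENSMUSG00000026923, chromosome 2, 26457903 to 26516663 on the minus strand of GRCm38), which encodes the receptor most studied in neural stem cells, had 907 reads in WT6, 564 in WT8, 769 in KO2 and 1060 in KO4. In CPM these were 52.7, 35.3, 42.0 and 57.9, so that the highest library was KO4 and the lowest WT8 and the genotypes overlapped. The means were 49.9 ± 11.2 CPM in KO and 44.0 ± 12.3 in WT (SD, n = 2 libraries each). The log2 fold change was 0.18 (95% interval -0.34 to 0.70, edgeR adjusted p = 0.822), and it was -0.071 without KO4 and -0.074 without WT8.

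Notch1 differed more within each genotype than between them. WT6 had 1.49 times the Notch1 of WT8, between 1.34 and 1.66 by its exact 95% interval, which is of counting error alone, and KO2 had 0.725 times that of KO4 (0.660 to 0.797). Of the genes with a mean of at least 10 CPM, 3.54% lay as far apart between the WT libraries and 1.46% between the KO libraries. Markers did not move 1 way in WT8, the library lowest in Notch1. Of the 6 radial glia markers Pax6, at 74.4 CPM against 86.6 to 95.1 in the other libraries, and Slc1a3 were lowest there, Sox2, Nes and Fabp7 were highest, and the sum of the 6 was highest at 2277 CPM. Of the 3 intermediate progenitor markers Eomes was lowest in WT8, at 116 CPM against 139 to 186, and Btg2 and Gadd45g were highest. Of the 5 neuronal markers Dcx, Map2 and Neurod6 were lowest in WT8 and Tubb3 was highest. Their part in the Notch1 difference was not tested.

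Notch2 and Notch3 were steadier. Notch2 (ENSMUSG00000027878, chromosome 3, 98013527 to 98150361, plus strand) had 52.8 CPM in WT6, 44.8 in WT8, 49.3 in KO2 and 50.7 in KO4. Both KO values lay between the WT values, and the log2 fold change was 0.03 (interval -0.22 to 0.28, edgeR adjusted p = 0.939), or -0.076 without WT8. Notch3 (ENSMUSG00000038146, chromosome 17, 32120820 to 32166852, minus strand) is used by neural progenitors and by the mural cells of vessels. Its values were 56.4 CPM in WT6, 59.9 in WT8, 50.2 in KO2 and 54.4 in KO4, so that both KO libraries lay below both WT libraries. The log2 fold change was -0.15 (interval -0.37 to 0.06, edgeR adjusted p = 0.743), or -0.090 without KO2. The 5 mural cell markers, led by Rgs5, summed to 72.0 CPM in WT6, 83.5 in WT8, 78.6 in KO2 and 70.0 in KO4, and these sums overlapped between genotypes. The log2 fold change was below 0 for 5 of the 5, beside 8033 of the 15708 genes tested, with a median of -0.11. None of the 5 markers passed edgeR. Their part in the Notch3 value was not tested.

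Per length of exon, Notch3 held the largest share of receptor transcript in all 4 libraries. CPM per kb of annotated exon was 6.82 ± 0.499 for Notch3, 4.58 ± 0.316 for Notch2 and 3.30 ± 0.717 for Notch1 (mean ± SD over the 4 libraries of both genotypes). Of the sum of the 3 genes on this scale, Notch3 took 44.8% in WT6, 52.7% in WT8, 45.2% in KO2 and 43.4% in KO4. Notch1 took 23.8%, 17.7%, 21.5% and 26.3%, and Notch2 between 29.6% and 33.3%. WT8 thus had the highest Notch3 and the lowest Notch1 share. The order of Notch1 and Notch2 rests on the exon length used: with the longest transcript of each gene Notch1 held 29.7% and Notch2 28.5%, because the union of Notch1 exons (14232 bases) is longer than its longest transcript (9488 bases). This share gives no account of Notch4, which had 1.64 CPM per kb.

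**Figure D2:**
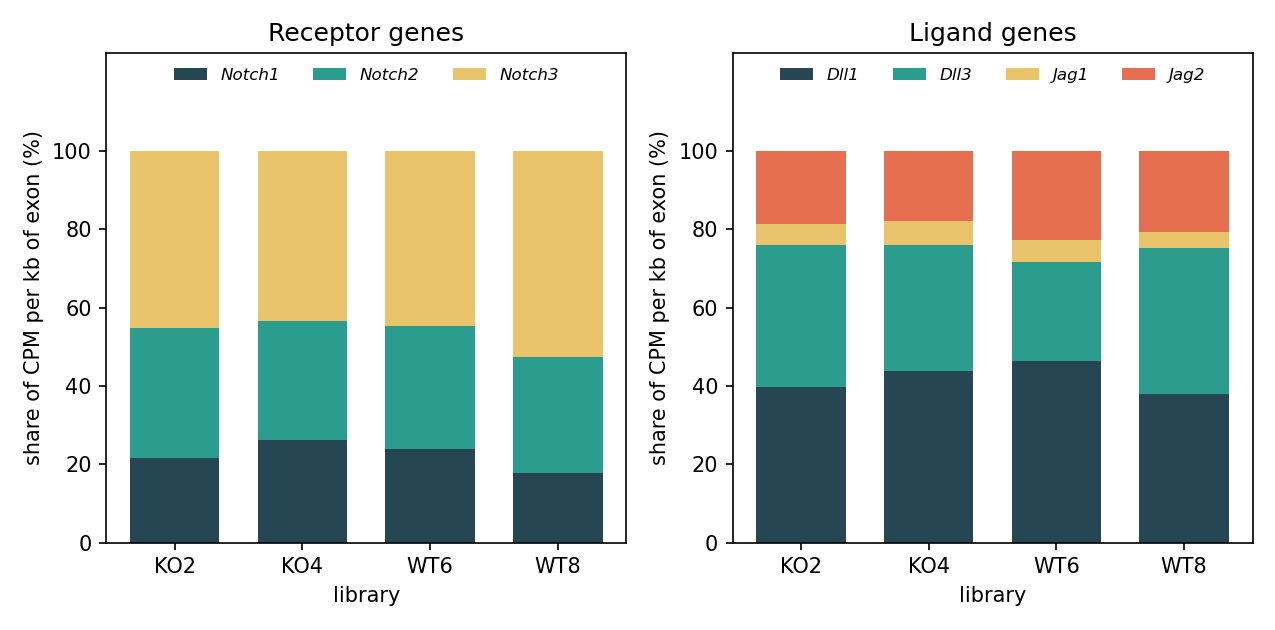
Stacked shares, in percent, of CPM per kb of exon among the 3 receptor genes (left) and the 4 ligand genes (right) in each library. Notch3 took 43.4% to 52.7% of receptor transcript, and Jag1 3.98% to 6.14% of ligand transcript.

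Among the ligand genes Jag1 lay higher in both KO libraries without passing the test over all genes. Jag1 (ENSMUSG00000027276, chromosome 2, 137081456 to 137116644, minus strand), a ligand of the Jagged class, had 202 reads in WT6, 153 in WT8, 252 in KO2 and 271 in KO4. In CPM these were 11.7, 9.58, 13.8 and 14.8, and the genotypes did not overlap. The means were 14.3 ± 0.736 in KO and 10.7 ± 1.53 in WT (SD, n = 2 each), a log2 fold change of 0.42 (interval 0.032 to 0.81, SE 0.16, edgeR adjusted p = 0.743). The ratio of WT6 to WT8 was 1.23 (0.988 to 1.52 by counting error). Over the fits without 1 library its fold ranged from 0.29 to 0.57, above 0 in each, and its adjusted p was at least 0.314.

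Jag2 stood on the other side of 0. Jag2 (ENSMUSG00000002799, chromosome 12, 112907819 to 112929776, minus strand), the second Jagged ligand, had 57.8 CPM in WT6, 59.6 in WT8, 55.2 in KO2 and 51.5 in KO4. Both KO libraries lay below both WT libraries by a small step, with a log2 fold change of -0.14 (interval -0.34 to 0.07, edgeR adjusted p = 0.743), or -0.088 without KO4. Per kb of exon, Jag2 had 8.04 ± 0.500 CPM and Jag1 2.14 ± 0.395, so that Jag2 was the more abundant Jagged transcript in each of the 4 libraries. The difference between the Jag1 and Jag2 fold changes was not tested.

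Dll1 varied little between the 4 libraries. Dll1 (ENSMUSG00000014773, chromosome 17, 15367354 to 15376872, minus strand), the main Delta ligand by which young neurons signal to progenitors, had 70.8 CPM in WT6, 66.1 in WT8, 71.5 in KO2 and 76.2 in KO4. KO lay above WT, with WT6 just under KO2. The log2 fold change was 0.11 (interval -0.10 to 0.32, edgeR adjusted p = 0.755), or 0.063 without KO4 and 0.066 without WT8. A noncoding gene on the other strand, A930024N18Rik, shares 867 bases of Dll1 exon and had 43 to 54 reads per library. Whether counting used strand is not stated in these sources, so reads there cannot be told apart. Of the receptor genes, Notch1 shares 1068 exon bases with 0610009E02Rik on the other strand, which had 6 to 13 reads per library. It shares 414 with Gm13568, and Notch3 shares 488 with Gm17276, both on the other strand. Notch2 shares 541 exon bases with Gm42820 on the same strand.

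Dll3 was set apart by 1 WT library. Dll3 (ENSMUSG00000003436, chromosome 7, 28293553 to 28302238, minus strand) encodes a divergent Delta protein that does not activate Notch on neighbouring cells and dampens it within its own cell. It had 451 reads in WT6, 703 in WT8, 808 in KO2 and 696 in KO4. In CPM these were 26.2, 44.0, 44.1 and 38.0: WT6 was low, and WT8 was level with KO2. The log2 fold change was 0.23 (interval -0.31 to 0.77, edgeR adjusted p = 0.789). Without WT8 it was 0.65 and passed edgeR (adjusted p = 0.00894), where 0.636% of 16345 genes did, and without WT6 it was -0.10. The fit without WT8 has WT6 as its only WT library and assumes that this library varies like the KO libraries.

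The ratio of WT6 to WT8 for Dll3 was 0.596, between 0.528 and 0.671 by its exact 95% counting interval, and 1.80% of genes with a mean of at least 10 CPM lay as far apart. Between KO2 and KO4 the ratio was 1.16 (1.05 to 1.29). Neurog2, a proneural factor gene of the dorsal telencephalon, had its highest value in the library where Dll3 was lowest, 333 CPM in WT6 against 267 to 292 in the other libraries, whereas Neurog1 was highest in KO4 and Hes6, the other gene of that list, in WT8. Among the intermediate progenitor and neuronal markers Eomes and Neurod6 were highest in WT6, Btg2, Gadd45g and Tubb3 in WT8, Stmn2 in KO2, and Dcx and Map2 in KO4. None of these markers was lowest in WT6. Of the 6 radial glia markers only Sox2 was lowest in WT6, at 164 CPM against 189 to 213 in the other libraries, and none was highest there. What part the makeup of the dissected tissue has in the Dll3 value was not tested.

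Proneural factors such as Neurog2 bind E-boxes, so the Dll3 start region is shown at its E-boxes. E-box letters are CANNTG, which read the same on both strands. The RefSeq promoter window (GRCm38.p6, 250 bases before to 50 after the start site) of Dll3 holds 2 of them, in capitals with 10 bases to either side, 5′ to 3′ on the minus strand.
Dll3, chr7:28301998-28302023, first capital at -228: gagaggaatgCACCTGtatttccgtt
Dll3, chr7:28301777-28301802, first capital at -7: cggcatccagCAGCTGcgactcctga
An E-box stood in the windows of 6 of the 10 genes (Dll1, Dll3, Jag1, Lfng, Rbpj and Nrarp) and in 72.3% of all 32851 windows, so that its presence sets no gene apart. The GENCODE M21 annotation places the first exon of Dll3 across both sites.

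Per kb of exon the Delta genes made up most of the ligand transcript. Dll1 had 16.9 ± 0.983 CPM per kb and Dll3 13.4 ± 2.95 (mean ± SD over 4 libraries). Of the sum of the 4 ligands Dll1 took 46.2% in WT6, 37.9% in WT8, 39.7% in KO2 and 43.7% in KO4, and Dll3 25.3%, 37.4%, 36.2% and 32.3%. WT6 had the lowest Dll3 share and the highest Dll1 share. Jag2 took 17.9% to 18.6% in KO and 20.7% to 22.9% in WT, with no overlap of the genotypes, while the shares of the other 3 ligands and of the 3 receptors overlapped. In CPM the genotypes did not overlap for 39.4% of all genes, and the share was not tested.

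**Figure D3:**
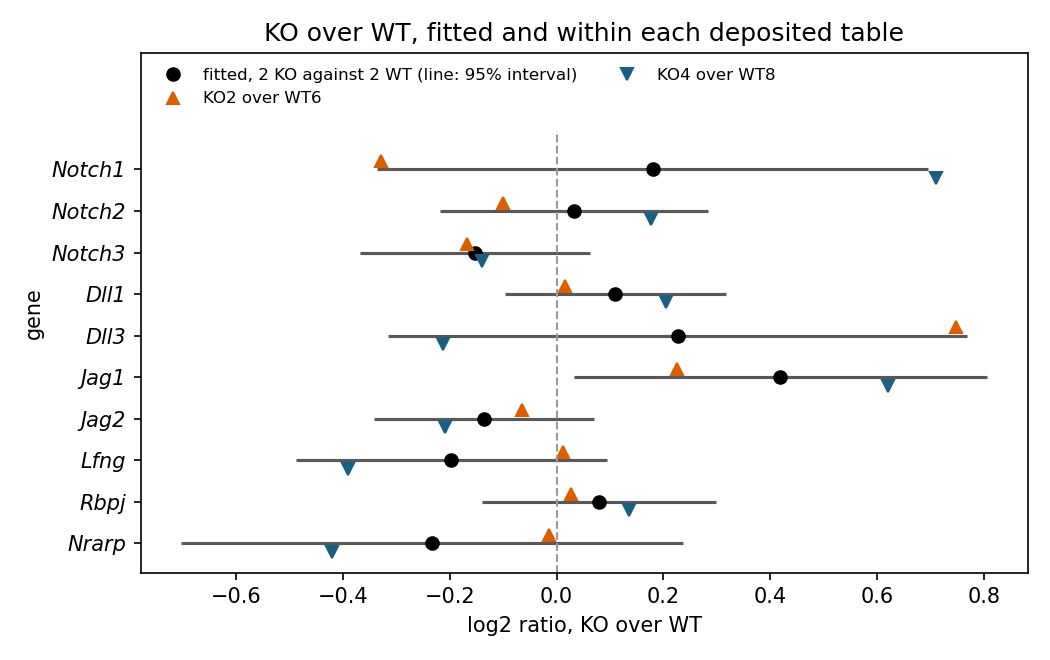
Log2 ratio of KO over WT per gene: the black point is the edgeR estimate over 2 KO and 2 WT libraries with its 95% interval as a line, and triangles are the ratios within each deposited table. The intervals of 9 of 10 genes include 0, and the triangles of Notch1, Notch2, Dll3 and Lfng lie on opposite sides of 0.

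The modulator genes did not pass the test either. WT8 was the highest library for Lfng and Nrarp and the lowest for Rbpj. Over all 15708 genes tested, it was highest for 5153 and lowest for 5339. Lfng (ENSMUSG00000029570, chromosome 5, 140607320 to 140615545, plus strand) had 50.8 CPM in WT6, 63.7 in WT8, 51.2 in KO2 and 48.6 in KO4. WT6 lay between the KO libraries, so the log2 fold change of -0.20 (interval -0.49 to 0.09, edgeR adjusted p = 0.743) came from WT8, and it was -0.022 without that library. Nrarp (ENSMUSG00000078202, chromosome 2, 25180758 to 25183339, plus strand) had 127 reads in WT6, 157 in WT8, 134 in KO2 and 134 in KO4. In CPM 3 libraries lay between 7.31 and 7.38 and WT8 at 9.83, a log2 fold change of -0.23 (interval -0.70 to 0.24, edgeR adjusted p = 0.764) that was -0.0093 without WT8.

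Lfng and Nrarp were thus nearly the same in KO2, KO4 and WT6. The ratio of WT6 to WT8 was 0.798 for Lfng (0.728 to 0.874 by counting error) and 0.751 for Nrarp (0.590 to 0.955). Hes5, a target gene of Notch in radial glia, was also highest in WT8, at 27.6 CPM against 15.6 to 20.4 in the other libraries. Of the 5 tested target genes of the bHLH family, WT8 was the highest library for 4 and the lowest for 1. That 1 was Hey1, at 45.7 CPM in WT8 against 46.5 to 53.5 in the other libraries. Among all 15708 genes tested, WT8 was highest for 5153 and lowest for 5339. Gm38287, a gene on the other strand, covers 2051 of the 2582 exon bases of Nrarp, and the annotation gives it as antisense, so that reads of the pair cannot be told apart without strand. It is not listed among the genes the tables share.

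Rbpj was the steadiest modulator. Rbpj (ENSMUSG00000039191, chromosome 5, 53466152 to 53657362, plus strand), the DNA-binding partner of all Notch receptors, had 106 CPM in WT6, 94.1 in WT8, 108 in KO2 and 103 in KO4. WT6 fell between the KO libraries, and the log2 fold change was 0.08 (interval -0.14 to 0.30, edgeR adjusted p = 0.814), or 0.00067 without WT8 and 0.17 without WT6. GENCODE M21 annotates the processed pseudogenes Rbpj-ps1 and Rbpj-ps3, with which reads of Rbpj can be shared.

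RBPJ binds DNA at a site whose core reads TGGGAA, and promoter windows were searched for it on both strands to show which of these genes carry the letters. They stood in the windows of 2 of the 10 genes, Lfng and Rbpj, and in 25.6% of all windows. The 10 genes have 12 windows. Both Rbpj windows, which begin at 53590096 and 53590236, lie inside the GENCODE gene, whose outermost start at 53466152 was not searched. The windows of Notch1, Dll3 and Jag2 lie inside their genes as well. The longer form GTGGGAA, which contains the core, stood in the window of Lfng and in 6.4% of all windows. The bases of the Lfng window before its first annotated exon, chr5:140607091-140607319 of GRCm38.p6 on the plus strand from RefSeq, are given with the cores in capitals (TTCCCA is the core read on the opposite strand), followed by the Rbpj sites and, for comparison, those of the target gene Hes5.
Lfng: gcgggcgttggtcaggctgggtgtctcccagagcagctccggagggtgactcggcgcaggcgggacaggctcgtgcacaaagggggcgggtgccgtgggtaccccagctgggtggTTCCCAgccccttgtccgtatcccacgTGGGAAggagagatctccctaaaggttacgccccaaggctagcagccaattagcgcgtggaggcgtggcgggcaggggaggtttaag
Rbpj, chr5:53590187-53590212: tgaaaaaggcTGGGAAcccgcggcga
Rbpj, chr5:53590271-53590296: cgctcgcattTTCCCAggacccctcc
Hes5, chr4:154960687-154960712: ggcgagcgcgTTCCCAcagcccggac
Hes5, chr4:154960831-154960856: ccgccgagtgTGGGAAcggccgcggc
Both Hes5 cores belong to the longer form, and 1 of the 2 Lfng cores does. A match is a description of the letters in this window.

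Ranked by CPM per kb of exon, Lfng stood highest among the 10 genes at 21.4 ± 2.73 (mean ± SD over 4 libraries), followed by Dll1, Dll3, Rbpj at 8.07 ± 0.482, Jag2, Notch3, Notch2, Notch1, Nrarp at 3.08 ± 0.483 and Jag1. Rbpj and Jag2 did not differ beyond their spread, nor did Notch1 and Nrarp. The place of Rbpj rests on the length used, since the union of its exons is 12750 bases and its longest transcript 5485, and with the latter it had 18.8 CPM per kb.

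The authors' deposited tables compare 1 KO with 1 WT library each, and they gave Notch1 opposite signs. For KO2 over WT6 the authors' deposited table lists Notch1 at a log2 fold of -0.32 (adjusted p = 9.85e-05), and for KO4 over WT8 at 0.78 (adjusted p = 1.06e-24). For Dll3 the authors' deposited tables list 0.76 (adjusted p = 4.63e-18) and -0.15 (adjusted p = 0.0734). In the first table, the authors' deposited adjusted p was under 0.05 for 2 of the 10 genes, Notch1 and Dll3, beside 17.3% of all genes listed there.

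In the second of the authors' deposited tables it was under 0.05 for 8 of the 10, beside 39.0% of all 20424 genes listed there. Of the 8, Notch1, Notch2, Dll1, Jag1 and Rbpj were higher in KO4 and Jag2, Lfng and Nrarp lower. The 39.0%, like the 17.3% of the first, includes genes with few reads and is not matched to the read depth of these 10. None of the 10 carried the authors' mark of significance in either deposited table, where 1.86% and 5.05% of genes did. Such p-values compare those libraries and not the genotypes. Notch1 was the single member under 0.05 in both.

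Other genes of the pathway did not pass either. Of 46 further genes in 8 groups, 44 were tested, and edgeR, DESeq2 and limma-voom called 0 of them, with 3 (Mib1, Adam10 and Numbl) at an unadjusted p under 0.05 in edgeR. The fold was above 0 for 15 and below 0 for 29, beside 7675 and 8033 of all 15708 genes. The median was -0.08, beside -0.01 over all genes. Without WT8, a fit with WT6 as its only WT library, edgeR called 1 of them, Dlk1 (1.25), higher in KO. WT8 was the highest library for 20 of the 44 and the lowest for 15, whereas over all genes it was highest for 5153 and lowest for 5339 of 15708.

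The target genes of the bHLH family, which carry the Notch signal onward, had folds below 0 in 5 of 5 tested members and none passed. Over all genes tested, folds were below 0 for 8033 of 15708. Hes1 had 32.1 CPM in WT6, 36.6 in WT8, 33.9 in KO2 and 26.1 in KO4, a log2 fold change of -0.19 (interval -0.55 to 0.16, edgeR adjusted p = 0.755). Hes5 stood at -0.19 (interval -0.81 to 0.42), Heyl at -0.22 and Hey1 at -0.06, and all of these overlapped between genotypes. Without WT8, Hes5 stood at 0.28 and Heyl at 0.052, and without WT6, Hey1 stood at 0.057. Hes7 had 1 to 6 reads per library and Hes3 is in 1 table alone, and neither was tested.

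**Figure D4:**
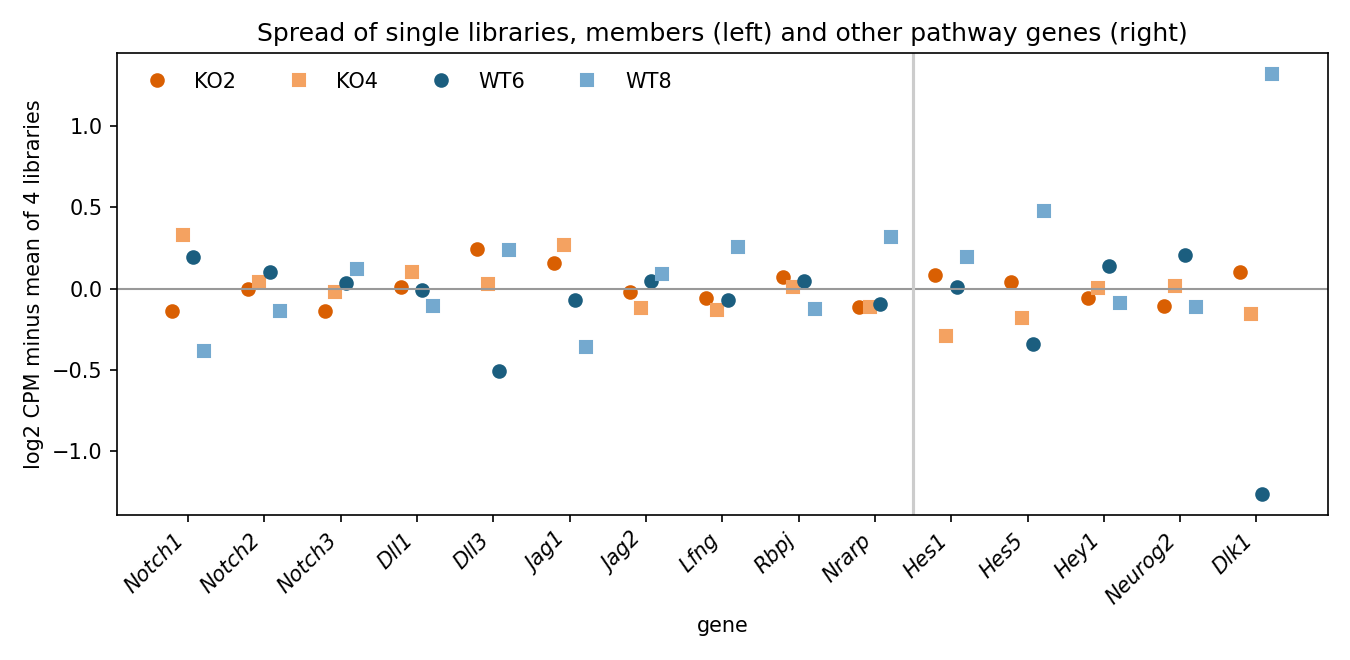
Deviation of log2 CPM in each library from the mean of the 4 libraries, for the 10 genes (left of the line) and for Hes1, Hes5, Hey1, Neurog2 and Dlk1. WT6 lies at -0.51 for Dll3, and WT8 at 0.32 for Nrarp, 0.26 for Lfng and 0.48 for Hes5.

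Genes that act on the ligand had folds on both sides of 0. Mib1, a ubiquitin ligase that drives the uptake of ligands, had 71.8 CPM in WT6, 68.6 in WT8, 86.0 in KO2 and 79.7 in KO4, a log2 fold change of 0.24 (interval 0.035 to 0.44, edgeR adjusted p = 0.743). Mib2, its relative and the most abundant of the 4 uptake genes per length, stood at -0.15. Among 4 sugar transfer genes Poglut1 stood at 0.12, Pofut1, which adds the fucose that fringe proteins extend, at -0.13, and Mfng, a fringe gene and the most abundant of the group at 44.4 CPM per kb, at -0.11, or 0.069 without WT8.

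Genes of receptor cleavage included 9 tested members. Adam10, the protease that makes the first cut after ligand binding, had 72.1 CPM in WT6, 72.6 in WT8, 81.6 in KO2 and 83.9 in KO4, a log2 fold change of 0.19 (interval 0.0054 to 0.38, edgeR adjusted p = 0.743). Aph1a, a subunit of gamma-secretase, which makes the second cut, stood at -0.19 with both KO libraries below both WT libraries. Psenen, another subunit, stood at -0.19, or 0.036 without WT8. Among 8 genes of receptor turnover Numbl, a relative of the Notch inhibitor Numb, had 161 CPM in WT6, 179 in WT8, 147 in KO2 and 133 in KO4, a log2 fold change of -0.28 (interval -0.52 to -0.05, edgeR adjusted p = 0.743). The ubiquitin ligase gene Itch stood at 0.22, and Dtx3, a gene of the Deltex family, at -0.20.

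Of 6 nuclear cofactor genes Cir1, a corepressor that binds RBPJ, stood at 0.38 (edgeR adjusted p = 0.743). Snw1, described under the other observations, stood at 0.55 (interval -0.26 to 1.36). Spen, the most abundant of the group per length and a corepressor gene as well, stood at 0.042, or -0.080 without KO4 and -0.10 without WT8. Of 5 further receptor and ligand genes Dlk2 stood at -0.34 and Dner, which encodes a neuronal EGF-repeat protein, at 0.08. The vessel genes Notch4 and Dll4 had log2 fold changes of -0.07 and 0.09, and without KO4 or without WT8 Notch4 stood at 0.011 and 0.024. The 6 endothelial markers, led by Cldn5, summed to between 109 and 120 CPM in all libraries. The 3 genes of the proneural group had folds below 0, as did 8033 of the 15708 genes tested. Neurog2 stood at -0.10, or 0.063 without WT6, and Hes6 at -0.20, or 0.0024 without WT8.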

How the data were processed

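RNA was extracted with Trizol, per the labels' protocols. Bowtie2 2.2.3, TopHat2 2.0.12, HTSeq 0.6.0 and mm9 are listed in the submitters' processing notes, without roles. Positions in the tables equalled GENCODE M21 (GRCm38) for 9 of the 10 members and 91.2% of all genes, and M21 positions are given. The authors deposited whole-number read counts, not normalized, per the file headers and values. Their tables also hold a CPM, a fold ratio of KO over WT, its log2 and a p-value with its adjusted value, per the file headers, and the test is not stated in these sources.

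Counts of 19150 shared genes were fitted in R 4.3.3 with edgeR 4.0.16 (quasi-likelihood, TMM, filterByExpr, genotype only), with Benjamini-Hochberg adjustment over 15708 genes and a threshold of 0.05. Printed CPM is TMM-scaled. SE is the fold over the root of F. Ratios within a table use a prior count of 2. Counting intervals are exact binomial at 95% and cover counting error only. Alternatives were other scalings and filters, DESeq2 1.42.0, limma-voom (limma 3.58.1), the deposited pair as a block and each library left out. Fits were tested on simulated counts, with 50 genes changed at each fold, drawn from all genes tested. There edgeR recovered 18% at 1.5-fold, 56% at 2-fold, 90% at 4-fold and 94% at 8-fold, so small changes were mostly missed. Per-kb values use the union of M21 exons. Promoter windows of all 10 members were matched by symbol in RefSeq (GRCm38.p6).

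Members and lists were chosen with earlier results of these data known. Some genes of the pathway lists are not reported here and are in no count over those lists. Named by rule were the members, the macroH2A genes, and in each list the 2 genes with the smallest p and the most abundant per kb (for cell type markers, the most abundant). Neurog1, markers beyond the most abundant of each list, Hes5, Hey1, Notch4, Dll4 and Dlk1 were named after their values were seen. The most abundant markers of lists not described elsewhere were Gadd45g, C1qb, Hba-a1, Col1a2 and Ttr.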

Additional observations from a re-analysis of the deposited data

How the results depend on the processing

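Under the other scalings, no filter, DESeq2, limma-voom and a block for the deposited table, none of the 10 genes changed direction or passed. Leaving out single libraries moved the count of members called from 0 to between 0 and 1, that of other pathway genes to between 0 and 1 (Dlk1 without WT8) and that of all genes from 1 to between 0 and 104. All genes called were 2 without scaling, 4 with DESeq2 and 2 when the deposited pair was the block. KO and WT share no replicate number in the labels, so no other block was fitted. Over the fits without 1 library, log2 fold changes that turned sign ranged from -0.074 to 0.50 for Notch1 (-0.071 without KO4), -0.076 to 0.16 for Notch2, -0.10 to 0.65 for Dll3, -0.27 to 0.069 for Mfng, -0.39 to 0.036 for Psenen, -0.45 to 0.052 for Heyl, -0.37 to 0.0024 for Hes6, -0.25 to 0.063 for Neurog2, -0.10 to 0.21 for Spen (-0.080 without KO4), -0.55 to 0.28 for Hes5, -0.17 to 0.057 for Hey1, -1.34 to 1.25 for Dlk1 and -0.17 to 0.024 for Notch4. The turn came without WT8 for Notch1, Notch2, Mfng, Psenen, Heyl, Hes6, Spen, Hes5, Dlk1 and Notch4, also without KO4 for Notch1, Spen and Notch4, and without WT6 for Dll3, Neurog2 and Hey1. Shares over the 4 libraries moved with the length used, by construction. With the longest transcript they were 29.7% for Notch1, 28.5% for Notch2, 41.8% for Notch3 and 23.1% for Jag2. With no division they were 30.7% for Notch1, 36.6% for Notch3, 21.3% for Dll3, 7.01% for Jag1 and 31.6% for Jag2. A fit without a library leaves 1 library in its genotype, whose spread is taken to be like that of the other genotype. With 2 libraries a group, the spread between libraries limited the intervals of Notch1 and Dll3 more than read depth did.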

Other observations

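Pathway genes with the widest gaps between the WT libraries were Dlk1, chosen after its values were seen, and Snw1, named by rule. Dlk1, an imprinted gene for a noncanonical Delta-like protein, had 463 reads in WT6, 2580 in WT8, 1271 in KO2 and 1065 in KO4, and in CPM 26.9, 162, 69.4 and 58.1. Both KO libraries lay between the WT libraries, and the log2 fold change was -0.56 (interval -2.14 to 1.02, edgeR adjusted p = 0.818). Without WT8, where WT6 is the only WT library, edgeR called it higher in KO, at 1.25.

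Snw1, which encodes a splicing protein that also binds the Notch complex, had 540 reads in WT6, 219 in WT8, 547 in KO2 and 667 in KO4. WT8 thus held 13.7 CPM against 29.8 to 36.4 in the other libraries, and the log2 fold change was 0.55 (interval -0.26 to 1.36, edgeR adjusted p = 0.743), or 0.082 without WT8 and 1.27 without WT6. Erythroid markers, led by Hba-a1, summed to 423 CPM in WT6, 969 in WT8, 555 in KO2 and 558 in KO4. Their part in the values of WT6 and WT8 was not tested.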
